A study of Rattus norvegicus with 12 samples.

Results

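The expression of 8 chemokines (Ccl2, Ccl7, Ccl20, Cxcl1, Cxcl10, Cxcl12, Cxcl16 and Cx3cl1) and of the macrophage growth factor Csf1 was examined in 2 related rat liver epithelial cell lines exposed to rapamycin. All probe sets annotated with these symbols were taken, which gave 14 probe sets for 9 genes, out of 31042 probe sets for 14217 genes on the array. WB311 is a spontaneous, tumorigenic derivative of WB-F344 that resists rapamycin and doubles in 15.5 hr. WB-F344 cells are a non-tumorigenic diploid line from the liver of an adult male Fischer rat, are rapamycin sensitive and double in 42 hr. The 4 groups were WB311 cells with rapamycin, WB311 cells with vehicle, WB-F344 cells with rapamycin and WB-F344 cells with vehicle, each of 3 plates with 1 Affymetrix rat genome array per plate. Exposure was to 50 nM rapamycin, or to DMSO as the vehicle, for 24 hr in medium with fetal bovine serum. Each line is a single culture-derived population, so a difference between the lines is a difference between these 2 populations, and the p-values measure the spread between plates, which may be technical.

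Chemokines are small secreted proteins that draw leukocytes along a gradient by binding G protein-coupled receptors. The CC family acts mainly on monocytes, dendritic cells and lymphocytes, while CXC members carrying a glutamate-leucine-arginine motif, such as Cxcl1, act on neutrophils. Csf1 keeps macrophages alive and dividing through the receptor tyrosine kinase Csf1r. In liver, these signals are released by epithelial, stellate and sinusoidal cells upon injury, and NF-kappaB and AP-1 are the transcription factors best known to induce them. Rapamycin inhibits mTOR Complex 1, a kinase that couples nutrients to growth.

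The values are intensities on a linear scale after Robust Multiarray Average. Tests were made by limma on log2 intensities of all 12 arrays together. A probe set was tested where the average intensity reached 100 in a group compared. It was called where the Benjamini-Hochberg adjusted p over all tested probe sets was under 0.05 and the fold change was at least 1.2. Log2 fold changes are given with their SE, and group averages with their SD over 3 arrays. An average under 100 is near the background of the array, so a fold change against it may be understated. Whether fewer cells expressed a gene or each cell held less of its RNA cannot be told apart in these extracts.

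The arrays were alike in median intensity, at 59.5 to 62.9. Both WB-F344 plates numbered 2 stood apart in RNA quality. Their log2 ratio of 3' over 5' Gapdh signal was 0.17 with rapamycin and 0.34 with vehicle, against -0.12 to -0.04 on the other 4 WB-F344 arrays. Of 8 measured hepatocyte markers, only Ttr reached an average of 100 in any group, so neither line had a hepatocyte profile. Biliary and progenitor markers at 100 or more were Krt7 and Spp1 in WB311 cells with rapamycin, Krt19 and Spp1 in WB311 cells with vehicle, and Krt7, Spp1 and Cd24 in both WB-F344 groups. Mesenchymal markers, including Col1a1 and Vim, reached 100 for 5 of 9 genes in WB311 cells and for 7 of 9 genes in WB-F344 cells. Their levels differed, with 6 of 7 tested called lower in WB311 with rapamycin and 7 of 7 with vehicle (median log2 -3.67 and -4.20). Among the 7, Tagln and Des averaged under 100 in both WB311 groups. They passed the minimum through the WB-F344 groups only, so they could hardly be called higher in WB311. Over all probe sets tested, 26.0% and 28.1% were lower. With rapamycin and vehicle, Col1a1 averaged 222 and 200 in WB311, against 9023 and 12835 in WB-F344. Vim averaged 11300 and 11837 in WB311, against 13109 and 14708 in WB-F344.

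The 250 bases before the transcription start are shown for 4 of the chemokines, since these windows held a match to a motif of NF-kappaB, of AP-1 or of the interferon-stimulated response element. The sequences are from RefSeq, rat build GRCr8, in which 7 of the 9 genes were found. They are written 5' to 3' on the strand of the gene, and capitals mark the matches. The windows are chr10:67513845-67514094 on the plus strand for Ccl7, chr9:91836909-91837158 on the plus strand for Ccl20, chr14:17479322-17479571 on the minus strand for Cxcl1 and chr14:15988816-15989065 on the plus strand for Cxcl10.
Ccl7: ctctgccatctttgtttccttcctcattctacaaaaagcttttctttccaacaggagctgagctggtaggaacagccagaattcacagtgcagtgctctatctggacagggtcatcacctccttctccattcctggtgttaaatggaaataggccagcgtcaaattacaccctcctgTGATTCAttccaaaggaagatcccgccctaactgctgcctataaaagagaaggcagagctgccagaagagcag
Ccl20: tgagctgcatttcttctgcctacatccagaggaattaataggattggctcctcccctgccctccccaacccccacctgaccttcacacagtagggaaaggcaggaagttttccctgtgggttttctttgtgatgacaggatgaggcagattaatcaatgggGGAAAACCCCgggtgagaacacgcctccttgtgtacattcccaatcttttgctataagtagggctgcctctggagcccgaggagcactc
Cxcl1: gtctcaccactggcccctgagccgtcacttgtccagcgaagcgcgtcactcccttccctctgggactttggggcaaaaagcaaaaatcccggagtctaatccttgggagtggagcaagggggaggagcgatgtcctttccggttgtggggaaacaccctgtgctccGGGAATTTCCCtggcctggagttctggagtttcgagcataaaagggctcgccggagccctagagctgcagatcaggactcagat
Cxcl10: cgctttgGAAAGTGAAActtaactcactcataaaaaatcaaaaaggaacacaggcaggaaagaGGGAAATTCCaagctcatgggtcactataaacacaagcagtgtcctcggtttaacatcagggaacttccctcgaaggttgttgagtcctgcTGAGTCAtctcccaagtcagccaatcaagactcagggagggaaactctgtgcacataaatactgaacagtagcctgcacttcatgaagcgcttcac

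Both strands were searched. The NF-kappaB consensus was found in 3 of the 7 windows, and in 3.54% of all 33469 promoter windows of this length. It lay 89 to 80 bases before the start of Ccl20, 84 to 74 bases before that of Cxcl1, where matches on both strands overlap, and 187 to 178 bases before that of Cxcl10. The AP-1 motif TGANTCA was found in 2 of the 7 windows, Ccl7 and Cxcl10, and in 6.34% of all windows. The core of the interferon-stimulated response element was found in Cxcl10 alone of the 7, and in 3.41% of all windows. Motifs left in lower case were TATAAA, in 3 of the 7 windows (Ccl7, Cxcl10 and Cx3cl1) and 12.9% of all, and the GC box GGGCGG, in 3 of the 7 (Ccl7, Cxcl12 and Cx3cl1) and 30.5% of all. The windows of Cxcl12, Cxcl16 and Cx3cl1 held no match to the NF-kappaB, AP-1 or interferon motifs in these letters. Such a match describes the letters and not a bound site.

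The largest changes with rapamycin were in the monocyte chemokines of WB-F344 cells. Ccl2, which draws monocytes through Ccr2, had intensities of 257, 284 and 309 in WB311 cells with rapamycin, against 199, 218 and 259 with vehicle. WB-F344 cells gave 3195, 2606 and 2932 with rapamycin, against 834, 707 and 759 with vehicle. The WB-F344 rapamycin arrays were all above every vehicle array of that line, whereas in WB311 the lowest rapamycin array (257) was below the highest vehicle array (259). The rise in WB-F344 was 3.79-fold, with a log2 fold change of 1.92 (SE 0.12, adjusted p = 9.74e-07). In WB311 the log2 fold change was 0.33 (SE 0.12, adjusted p = 0.152), which was not called. The difference of these effects, WB311 minus WB-F344, was -1.59 on the log2 scale (SE 0.16, adjusted p = 0.000161).

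Ccl7, the neighbour of Ccl2 on chromosome 10 with 0 protein-coding genes between them, also acts on monocytes. In WB311 cells its intensity was 39.0, 32.1 and 35.9 with rapamycin, against 33.3, 35.0 and 29.5 with vehicle. WB-F344 cells gave 2856, 2701 and 2725 with rapamycin, against 661, 561 and 579 with vehicle. The WB-F344 treatments were widely separated, and all 6 WB311 arrays lay under 100. Ccl7 rose 4.61-fold in WB-F344 (log2 2.20, SE 0.09, adjusted p = 1.14e-07) and was not tested in WB311, where the log2 fold change was 0.13. The effects differed between the lines by -2.07 on the log2 scale (SE 0.13, adjusted p = 9.24e-06). The probe set passed the minimum for this test through the WB-F344 groups only. A change in WB311 could be missed so near background, so this difference mostly restates the rise in WB-F344. Ccl7 was lower in WB311 than in WB-F344 when both had rapamycin, with a log2 difference of -6.28 (SE 0.09, adjusted p = 1.04e-13). With vehicle the difference was -4.20 (SE 0.09, adjusted p = 2.63e-12). For Ccl2 these differences were -3.36 with rapamycin and -1.77 with vehicle (adjusted p = 9.92e-11 and 4.60e-08).

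Ccl20, the ligand of Ccr6 on dendritic cells and lymphocytes, had the opposite line pattern and no call for rapamycin. It measured 1062, 1023 and 1109 in WB311 cells with rapamycin, against 1064, 998 and 1005 with vehicle. WB-F344 cells gave 26.1, 21.3 and 34.5 with rapamycin, against 29.6, 24.5 and 22.9 with vehicle. The lines did not overlap, while the treatments overlapped in each line. WB311 was higher than WB-F344 by 5.31 on the log2 scale with rapamycin and by 5.32 with vehicle (SE 0.15 each, adjusted p = 1.33e-11 and 1.46e-11). In WB311 the log2 fold change with rapamycin was 0.06, with a 95% interval of -0.26 to 0.38 (adjusted p = 0.911).

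**Figure D1:**
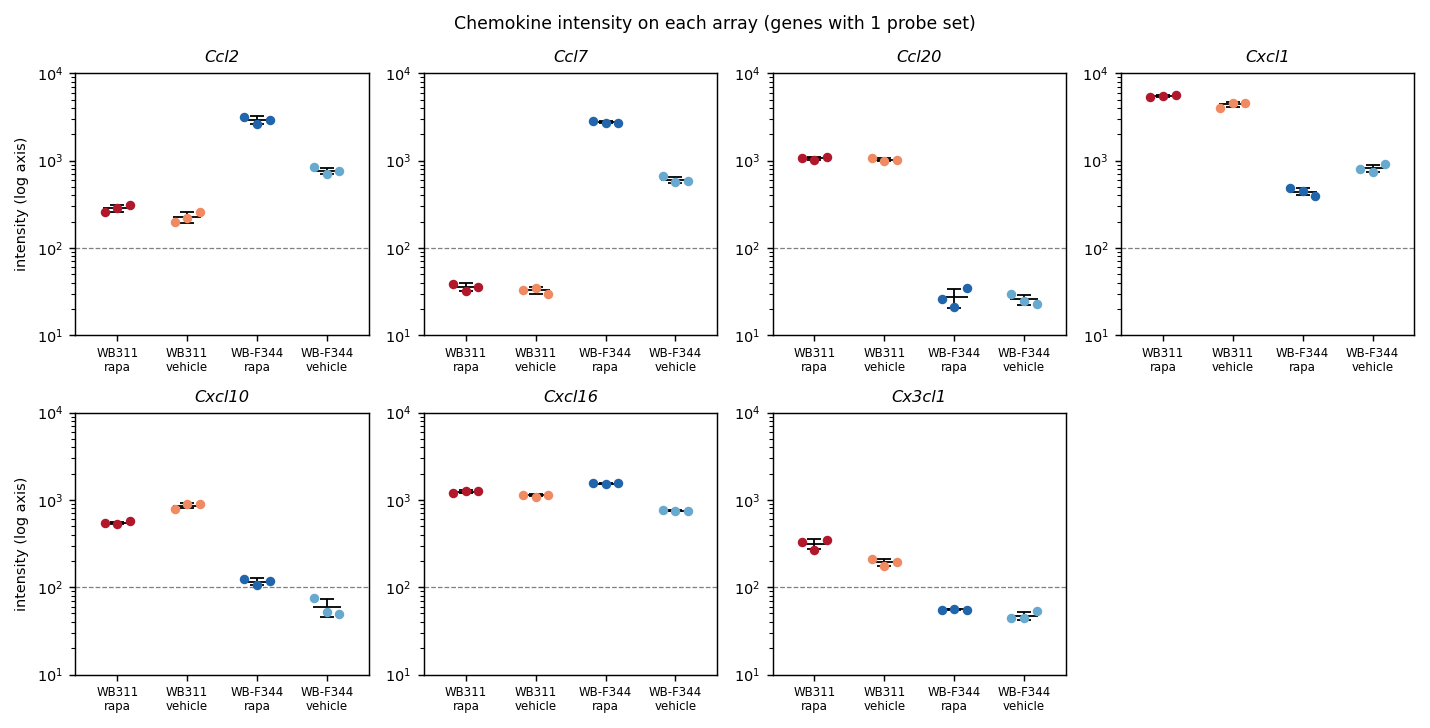
Intensity (log axis) of the 7 chemokines with 1 probe set on each array, for WB311 and WB-F344 cells with rapamycin ("rapa") or vehicle. Points are arrays, black marks the mean and SD of 3 arrays, and the dashed line is an intensity of 100. Ccl2 and Ccl7 stand at 2606 to 3195 and 2701 to 2856 in WB-F344 cells with rapamycin, above all other groups, and Ccl20 is at 998 to 1109 in WB311 cells and under 100 in WB-F344 cells.

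Cxcl1, a neutrophil chemokine that signals through Cxcr2, went in the opposite direction from Ccl2 in WB-F344. It had 5379, 5459 and 5633 in WB311 cells with rapamycin, against 4049, 4613 and 4586 with vehicle. In WB-F344 cells it had 480, 445 and 398 with rapamycin, against 804, 737 and 904 with vehicle. The treatments did not overlap in either line, with rapamycin above vehicle in WB311 and below it in WB-F344. The fall in WB-F344 was 1.85-fold (log2 -0.89, SE 0.09, adjusted p = 5.18e-05). In WB311 the log2 fold change of 0.32 (SE 0.09) was not called with all 12 arrays fitted (adjusted p = 0.0970), but was called when only the WB311 arrays were fitted (adjusted p = 0.0267). The effects differed by 1.2 on the log2 scale (SE 0.13, adjusted p = 0.000246). Cxcl1 was higher in WB311 than in WB-F344 by 3.64 on the log2 scale with rapamycin and by 2.44 with vehicle (adjusted p = 8.24e-12 and 3.31e-10).

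Cxcl10, an interferon-induced ligand of Cxcr3 that draws T cells and NK cells, was called in both lines and in opposite directions. Its intensity was 540, 534 and 566 in WB311 cells with rapamycin, against 790, 885 and 896 with vehicle. Values in WB-F344 cells were 126, 105 and 117 with rapamycin, against 74.4, 52.7 and 49.6 with vehicle. All rapamycin arrays were below the vehicle arrays in WB311 and above them in WB-F344. The fall in WB311 was 1.57-fold (log2 -0.65, SE 0.13, adjusted p = 0.0212). This call was lost when any 1 of the 6 WB311 arrays was left out, with adjusted p of 0.0506 to 0.0867 and log2 fold changes of -0.70 to -0.61. The rise in WB-F344 was 1.99-fold (log2 1.0, SE 0.13, adjusted p = 0.000227), and the probe set passed the intensity minimum there through the rapamycin group only. The difference of the effects was -1.64 (SE 0.19, adjusted p = 0.000291). WB311 stayed above WB-F344 by 2.24 with rapamycin and by 3.89 with vehicle (log2, adjusted p = 1.50e-08 and 1.01e-10).

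Cxcl16, which is made as a transmembrane protein and is the ligand of Cxcr6, was the member in which the order of the lines turned with the treatment. It had 1197, 1268 and 1271 in WB311 cells with rapamycin, against 1150, 1091 and 1130 with vehicle. In WB-F344 cells it had 1553, 1516 and 1547 with rapamycin, against 758, 747 and 744 with vehicle. The groups did not overlap on any array. Cxcl16 rose 2.05-fold in WB-F344 (log2 1.04, SE 0.06, adjusted p = 6.77e-07). The log2 fold change in WB311 was 0.15 (SE 0.06, adjusted p = 0.224), and the effects differed by -0.89 (SE 0.08, adjusted p = 9.48e-05). WB311 was lower than WB-F344 with rapamycin by a log2 difference of -0.31 (SE 0.06, adjusted p = 0.000637), and higher with vehicle by 0.58 (SE 0.06, adjusted p = 3.07e-06).

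Cx3cl1, or fractalkine, is a membrane-bound chemokine that is shed by Adam10 and Adam17 and binds Cx3cr1. It measured 331, 270 and 344.3 in WB311 cells with rapamycin, against 208, 173 and 195 with vehicle. Values in WB-F344 cells were 55.4, 56.7 and 55.5 with rapamycin, against 44.8, 43.9 and 53.5 with vehicle. All WB311 rapamycin arrays were above the vehicle arrays of that line, and all WB-F344 arrays were under 100. The rise in WB311 was 1.63-fold (log2 0.71, SE 0.11, adjusted p = 0.00522). In WB-F344 the gene was not tested, with a log2 fold change of 0.24. The difference of the effects was 0.46 (SE 0.15, 95% interval 0.13 to 0.80) and missed the threshold (adjusted p = 0.0808). It passed without WB311 rapamycin plate 2 (log2 0.57, adjusted p = 0.0336). For this test the probe set reached the intensity minimum through the WB311 groups only. With the plate number as a block within each line the difference also passed (adjusted p = 0.0197). Plate numbers are not stated to pair plates, however, and same-numbered WB311 plates did not correlate (r of -0.06, -0.00026 and -0.14). WB311 was higher than WB-F344 by 2.49 with rapamycin and by 2.02 with vehicle (log2, adjusted p = 9.22e-10 and 7.94e-09).

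**Figure D2:**
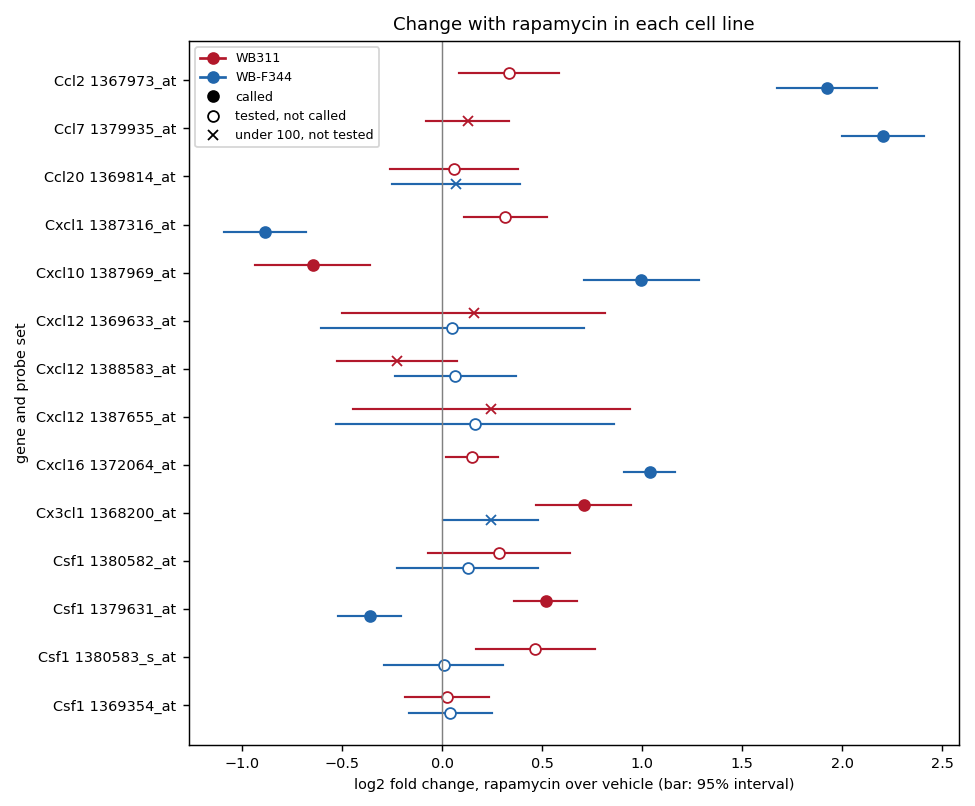
Log2 fold change of rapamycin over vehicle for the 14 probe sets, in WB311 cells (red, upper of each pair) and WB-F344 cells (blue, lower), with 95% intervals. Filled circles are called, open circles tested and not called, and crosses not tested because both averages were under 100. Cxcl10 and the Csf1 probe set 1379631_at have filled circles on opposite sides of 0, at -0.65 and 1.0 for Cxcl10 and at 0.52 and -0.36 for Csf1 in WB311 and WB-F344 cells.

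Cxcl12, which holds stem and progenitor cells and lymphocytes in place through Cxcr4 and is scavenged by Ackr3, was measured by 3 probe sets. Probe set 1369633_at had 59.4, 21.7 and 28.7 in WB311 cells with rapamycin, against 22.1, 39.0 and 31.1 with vehicle. Values in WB-F344 cells were 1234, 1663 and 1518 with rapamycin, against 1327, 1510 and 1397 with vehicle. The lines were far apart and the treatments overlapped in each line. The other 2 probe sets showed the same, with averages of 16.7 to 23.7 in the WB311 groups and of 350 to 1255 in the WB-F344 groups. The log2 differences between WB311 and WB-F344 were -5.45, -6.25 and -3.93 with rapamycin, and -5.56, -5.95 and -4.01 with vehicle (adjusted p of 2.11e-12 to 3.01e-07). No Cxcl12 probe set was called for rapamycin in WB-F344, where the log2 fold changes were 0.05, 0.07 and 0.16 (adjusted p of 0.746 to 0.923), and none reached the minimum in WB311. The widest of their 95% intervals in WB-F344, for 1387655_at, ran from -0.53 to 0.86. That probe set had 423, 255 and 432 with rapamycin against 448, 172 and 430 with vehicle in WB-F344, and in each group the low value was on plate 2, the plates with the higher 3' over 5' ratios.

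Csf1 had 4 probe sets that did not move alike. Probe set 1379631_at had 752, 737 and 718 in WB311 cells with rapamycin, against 486, 522 and 536 with vehicle. WB-F344 cells gave 243, 270 and 253 with rapamycin, against 320, 349 and 316 with vehicle. The treatments did not overlap in either line, and they ran in opposite directions. This probe set rose in WB311 (1.43-fold, log2 0.52, SE 0.07, adjusted p = 0.00285) and fell in WB-F344 (1.29-fold, log2 -0.36, SE 0.07, adjusted p = 0.00283). The difference of the effects was 0.88 (SE 0.10, adjusted p = 0.000309). The other 3 probe sets were not called for rapamycin in either line.

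Probe set 1380583_s_at had 569, 655 and 705 in WB311 cells with rapamycin, against 447, 486 and 459 with vehicle. WB-F344 cells averaged 299 ± 34.8 with rapamycin and 300.2 ± 55.9 with vehicle (SD, n = 3 each), and these groups overlapped. In WB311 the groups did not overlap, and the log2 fold change was 0.47 (SE 0.14, adjusted p = 0.0901). With only the WB311 arrays fitted the adjusted p was 0.0138. Its effects differed by 0.46 (SE 0.19, adjusted p = 0.169), which was not called. The difference was called without WB-F344 vehicle plate 2 (log2 0.62, adjusted p = 0.0205). It was also called without both WB-F344 plates numbered 2 (log2 0.52, adjusted p = 0.0177). With the plate number as a block within lines the adjusted p was 0.0186. Same-numbered WB311 plates did not correlate, so this block has little basis in that line. Probe set 1380582_at averaged 861 ± 17.5 in WB311 cells with rapamycin and 709 ± 66.1 with vehicle (SD, n = 3 each), and 547 ± 93.6 with rapamycin and 506 ± 116 with vehicle in WB-F344 cells (SD, n = 3 each). Its log2 fold change was 0.28 in WB311 (95% interval -0.07 to 0.64) and 0.13 in WB-F344 (-0.23 to 0.48). Probe set 1369354_at averaged 310 and 307 in WB311 cells with rapamycin and vehicle, and 272 and 264 in WB-F344 cells with rapamycin and vehicle. Its intervals for the rapamycin effect were -0.18 to 0.23 in WB311 and -0.17 to 0.25 in WB-F344. Both 1380582_at and 1380583_s_at were lowest on plate 2 in each WB-F344 group, as for Cxcl12 1387655_at.

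Between the lines, 3 of the 4 Csf1 probe sets were higher in WB311. The log2 differences with rapamycin were 0.67 for 1380582_at, 1.53 for 1379631_at and 1.10 for 1380583_s_at (adjusted p = 0.00311, 1.71e-09 and 1.48e-05). With vehicle they were 0.51, 0.65 and 0.64 (adjusted p = 0.0160, 6.18e-06 and 0.00131). The call of 1380582_at with vehicle was lost without WB311 vehicle plate 2 (adjusted p = 0.0637). The fourth, 1369354_at, differed by 0.19 with rapamycin and 0.21 with vehicle and was not called (adjusted p = 0.0985 and 0.0763), but with vehicle it was called without WB311 vehicle plate 3 (log2 0.32, adjusted p = 0.00673).

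**Figure D3:**
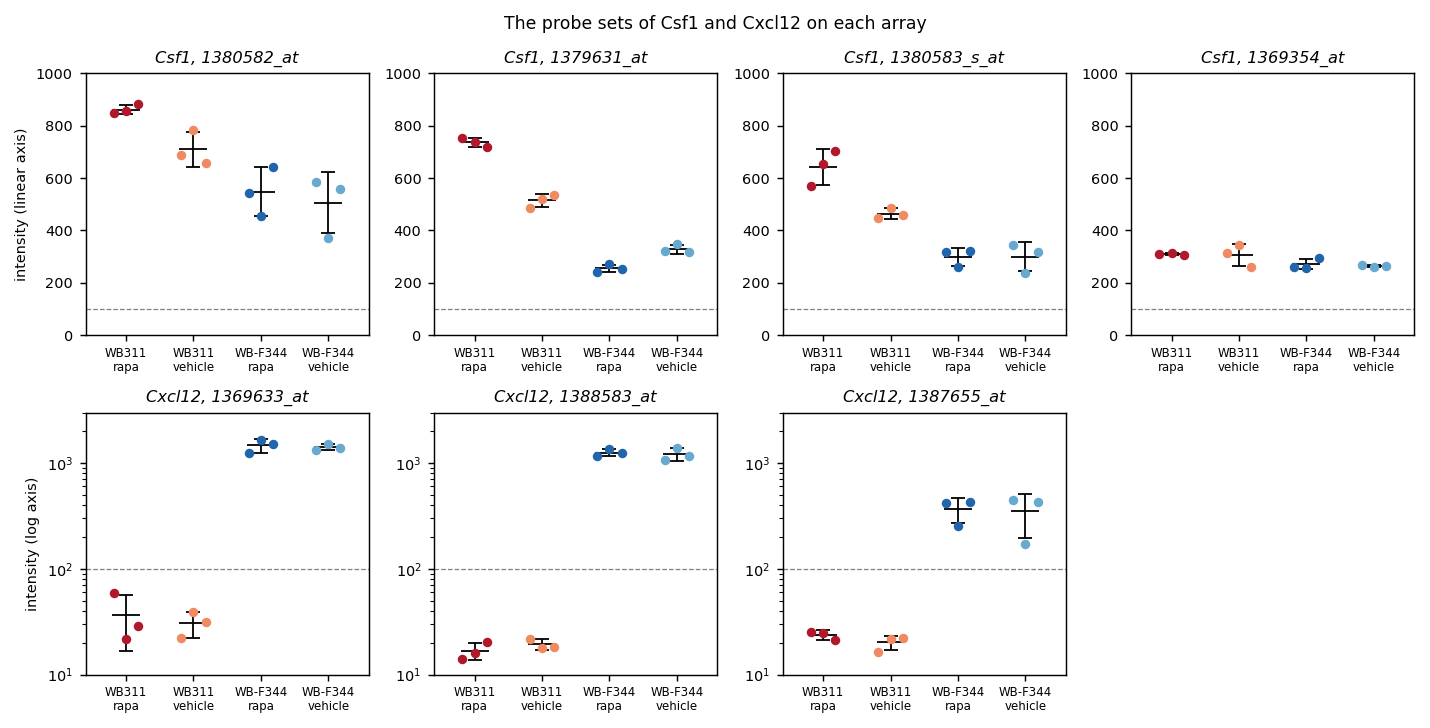
Intensity on each array for the 4 probe sets of Csf1 (upper row, linear axis) and the 3 probe sets of Cxcl12 (lower row, log axis), for WB311 and WB-F344 cells with rapamycin ("rapa") or vehicle. Points are arrays, black marks the mean and SD of 3 arrays, and the dashed line is an intensity of 100. Csf1 1379631_at is highest in WB311 cells with rapamycin (718 to 752), while 1369354_at stays between 258 and 346 in all groups.

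Counted over probe sets, 12 of the 14 were tested for rapamycin in WB-F344, of which 4 rose and 2 fell. Among all 13261 tested probe sets, 7.74% rose and 15.3% fell in that comparison. Without WB-F344 vehicle plate 2, the rises over all probe sets numbered 1593, against 1027 with all arrays. In WB311, 10 of the 14 were tested, of which 2 rose (Cx3cl1 and Csf1 1379631_at) and 1 fell (Cxcl10), against 1.71% rising and 1.64% falling of all 13135 tested. With both WB-F344 plates numbered 2 left out, the counts in WB-F344 were the same and the rises in WB311 numbered 5. The rapamycin effect was higher in WB311 than in WB-F344 for 2 of the 14 probe sets and lower for 4. These 4 include Ccl7, which was near background in WB311. Of all 14214 tested, 6.87% were higher and 3.15% lower. The lower calls over all probe sets numbered 676 without WB-F344 vehicle plate 2, against 448 with all arrays. The median log2 fold change of the tested member probe sets was 0.30 in WB311 and 0.10 in WB-F344, beside 0.01 and -0.05 over all probe sets tested. With 1 probe set per gene, that of highest mean, it was 0.28 in WB311 and 1.0 in WB-F344 over 7 tested genes in each. The order of the lines in this median thus depends on how the probe sets of Csf1 and Cxcl12 are counted. The tested genes also differed, with Ccl7 and Cxcl12 tested only in WB-F344, and Ccl20 and Cx3cl1 only in WB311. The medians of the 2 lines are therefore not over the same genes. With cyclic loess between arrays, the share of rises among all calls was 48.3% in WB-F344, against 33.6% in the values as deposited, and that of the higher differences was 55.5%, against 68.5%. With each array centred on its median, these shares were 26.1% and 74.0%. No called member changed direction under either alternative.

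Between the lines, WB311 was higher than WB-F344 for 7 of the 14 probe sets and lower for 6 with rapamycin. Of all 13949 probe sets tested there, 33.3% were higher and 26.0% lower. With vehicle, WB311 was higher for 8 and lower for 5 of the 14, against 27.9% higher and 28.1% lower of 13871 tested. Ccl20, Cxcl1, Cxcl10 and Cx3cl1 were thus higher in WB311 under both treatments, and Ccl2, Ccl7 and Cxcl12 lower under both. Csf1 was higher under both by all its probe sets except 1369354_at, which was not called. The vehicle call of 1380582_at was lost in some fits. For Cxcl16 the order of the lines turned with the treatment, as described above.

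**Figure D4:**
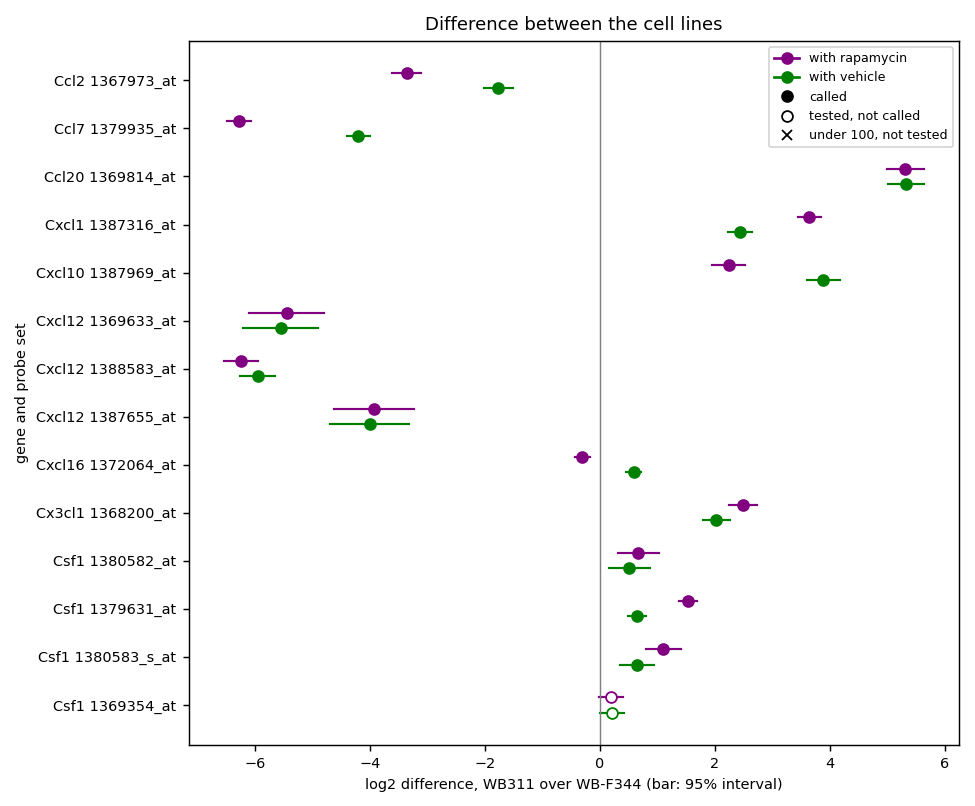
Log2 difference of WB311 over WB-F344 cells for the 14 probe sets, with rapamycin (purple, upper of each pair) and with vehicle (green, lower), with 95% intervals. Filled circles are called and open circles tested and not called. Cxcl16 lies on opposite sides of 0, at -0.31 with rapamycin and 0.58 with vehicle, and Ccl20, Ccl7 and Cxcl12 lie farthest from 0.

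Few other genes of the same system were expressed. Of 23 other chemokines measured, only Cxcl3, a neutrophil chemokine close in sequence to Cxcl1, reached 100 in a group. The other 22 had group averages of at most 74.0. Cxcl3 averaged 403 ± 13.0 in WB311 cells with rapamycin and 340 ± 7.96 with vehicle, and 109 ± 7.70 with rapamycin and 112 ± 23.6 with vehicle in WB-F344 cells (SD, n = 3 each). It was not called for rapamycin in either line (log2 0.24 in WB311 and -0.02 in WB-F344). It was higher in WB311 than in WB-F344 by 1.89 with rapamycin and by 1.62 with vehicle (log2, adjusted p = 2.84e-08 and 1.44e-07). Its probe set is of the type whose probes can bind related transcripts, so signal from a paralog cannot be told apart. Of 14 other leukocyte cytokines and growth factors, only Kitlg, the ligand of the receptor Kit, reached 100, and it was not called for rapamycin. Il6 and Il34, which shares the receptor of Csf1, averaged 15.5 to 24.5 in the 4 groups.

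Receptors of these ligands were near background, with a single exception. Of 14 measured, 13 had group averages of at most 60.8, among them Ccr2, Cxcr2, Cxcr3, Cxcr4, Ccr6, Cx3cr1 and Csf1r. The exception was Ackr3, an atypical receptor that takes up Cxcl12 without G protein signaling. It had 2504, 2489 and 2750 in WB311 cells with rapamycin, against 1733, 1788 and 1820 with vehicle. In WB-F344 cells it had 1597, 1756 and 1631 with rapamycin, against 2813, 2966 and 2877 with vehicle. Rapamycin was above vehicle on all WB311 arrays and below it on all WB-F344 arrays. Ackr3 rose in WB311 (log2 0.53, SE 0.07, adjusted p = 0.00186) and fell in WB-F344 (log2 -0.80, SE 0.07, adjusted p = 1.36e-05), a difference of effects of 1.33 (SE 0.10, adjusted p = 1.23e-05). Its line order turned with treatment, with WB311 higher by 0.64 with rapamycin and lower by a log2 difference of -0.70 with vehicle. This is the reverse of the turn in Cxcl16.

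Of the proteases that cut these ligands 7 were measured, of which 2 were tested for rapamycin in WB311 and 3 in WB-F344. Adam17, the sheddase of Cx3cl1 and Csf1, rose in WB-F344 (log2 0.40, SE 0.07, adjusted p = 0.00103) and had a log2 fold change of 0.04 in WB311 (adjusted p = 0.879). The difference of these effects, -0.37 (adjusted p = 0.0292), was lost in 9 of the 12 fits that left out a single array, with adjusted p up to 0.0709. Adam10 was not called for rapamycin in either line, nor was Mmp14 in WB-F344.

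Among 18 measured regulators and subunits of NF-kappaB and AP-1, 2 rose and 1 fell of 13 tested in WB311. In WB-F344, 3 rose and 2 fell of 14 tested. Over all probe sets tested, 1.71% rose and 1.64% fell in WB311, and 7.74% rose and 15.3% fell in WB-F344. Nfkbia, the NF-kappaB inhibitor that is itself an NF-kappaB target, had 1142, 1284 and 1157 in WB311 cells with rapamycin, against 864, 839 and 884 with vehicle. In WB-F344 cells it had 297, 322 and 262 with rapamycin, against 374, 379 and 376 with vehicle. The treatments did not overlap in either line and ran in opposite directions, as for Cxcl1. Nfkbia rose in WB311 (log2 0.47, SE 0.08, adjusted p = 0.00921, or 0.0518 without WB311 rapamycin plate 2) and fell in WB-F344 (log2 -0.36, SE 0.08, adjusted p = 0.00620). The effects differed by 0.83 (SE 0.12, adjusted p = 0.000979). Junb, an AP-1 subunit, rose in both lines, by 0.44 in WB311 and by 0.99 in WB-F344 (log2, adjusted p = 0.00921 and 7.16e-06), with a difference of -0.55 (adjusted p = 0.00754). Tnfaip3, which ends NF-kappaB signaling, and Fosl1 rose in WB-F344 (log2 0.70 and 0.67, adjusted p = 0.000553 and 0.00185). Tnfaip3 passed the minimum there through the rapamycin group only, with averages of 137 with rapamycin and 84.1 with vehicle. Both genes averaged under 100 in the WB311 groups and were not tested in that line, where Tnfaip3 had 87.2, 85.2 and 104 with rapamycin, against 64.1, 68.4 and 57.1 with vehicle (log2 0.54). The NF-kappaB subunits Rela and Nfkb1 were not called for rapamycin in either line.

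Of 15 interferon response genes measured, 1 rose and 1 fell of 5 tested in WB311, and 1 rose and 2 fell of 6 tested in WB-F344. The shares rising and falling over all probe sets tested were 1.71% and 1.64% in WB311, and 7.74% and 15.3% in WB-F344. The interferon genes tested had a median log2 fold change of -0.03 in WB311 and -0.23 in WB-F344, and whether the list moved together was not tested. Isg15, a ubiquitin-like protein induced by interferon, fell in WB311 as Cxcl10 did (log2 -1.30, SE 0.11, adjusted p = 0.000276). It had 115, 141 and 118 with rapamycin against 335, 259 and 326 with vehicle in WB311, and group averages of 81.8 and 83 in WB-F344 with rapamycin and vehicle. Ifi27 rose in both lines (log2 0.38 in WB311 and 0.66 in WB-F344, adjusted p = 0.00737 and 2.58e-05). The 8 regulators of mRNA that were measured mostly bind AU-rich elements, through which chemokine mRNAs are degraded. Of these, 1 of 7 tested rose in WB311 (Tia1, log2 0.40, adjusted p = 0.0478). Tia1 passed the minimum there through the rapamycin group only, with averages of 102 with rapamycin and 77.1 with vehicle. In WB-F344, 1 of 6 rose (Zfp36l2, log2 0.44, adjusted p = 0.0154) and 1 fell (Hnrnpd, log2 -0.37, adjusted p = 0.00390). The shares over all probe sets are those given above for each line. The Tia1 and Zfp36l2 calls were each lost when some single arrays were left out, with adjusted p up to 0.187 and 0.0655.

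Markers of leukocytes were measured beside these genes, since leukocytes also make chemokines. Of 11 measured, only Cd14 reached 100, and the summed intensity of the 11 was 945 to 976 in WB311 cells with rapamycin and 847 to 949 with vehicle. It was 1338 to 1607 in WB-F344 cells with rapamycin and 820 to 955 with vehicle. Most of this sum was Cd14, which averaged 1123 with rapamycin and 566 with vehicle in WB-F344. The other 10 markers had group averages of at most 82.2. Cd14, a co-receptor for lipopolysaccharide, rose in WB-F344 with Ccl2, Ccl7 and Cxcl16 (log2 0.99, SE 0.11, adjusted p = 5.59e-05). Its intensities there were 1181, 981 and 1207 with rapamycin, against 610, 501 and 587 with vehicle. In WB311 its log2 fold change was 0.21 (adjusted p = 0.345), and the effects differed by -0.77 (adjusted p = 0.00648). The pan-leukocyte gene Ptprc averaged 22.1 and 22.9 in WB311 cells and 22.6 and 21.6 in WB-F344 cells with rapamycin and vehicle, at the level of the background.

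**Figure D5:**
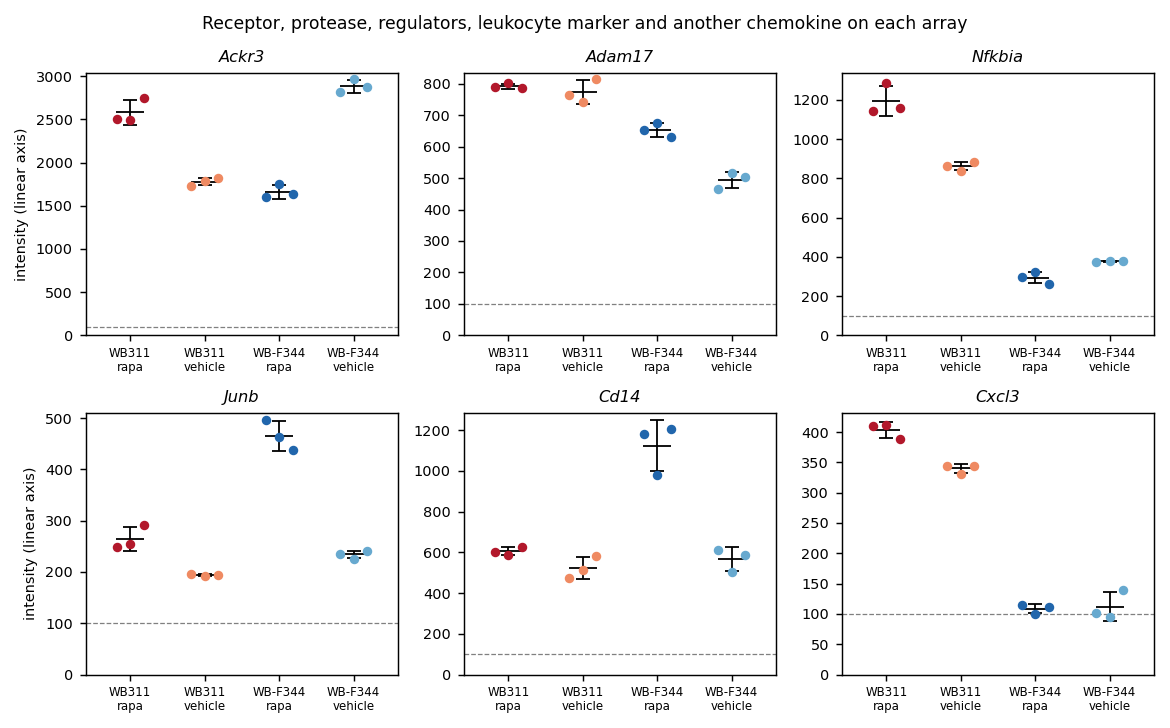
Intensity (linear axis from 0) on each array of Ackr3, Adam17, Nfkbia, Junb, Cd14 and Cxcl3 in WB311 and WB-F344 cells with rapamycin ("rapa") or vehicle. Points are arrays, black marks the mean and SD of 3 arrays, and the dashed line is an intensity of 100. Ackr3 and Nfkbia are higher with rapamycin in WB311 cells and lower with it in WB-F344 cells, and Cd14 is at 981 to 1207 in WB-F344 cells with rapamycin and at 474 to 627 in the other groups.

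As a description, the genes most like 3 members over the 12 arrays were found by Pearson's r of log2 intensities centred on each line. The search covered 11467 probe sets of genes other than the members. Within each line 3 arrays had rapamycin and 3 vehicle, so a high r can reflect a like treatment effect. Arrays of 1 group are also close together. For Ccl2 these were Serpinb9 (r = 0.987), an inhibitor of granzyme B, Smim14 (r = 0.986) and Cd14 (r = 0.983). Among the members, which were left out of the search, Cxcl16 and Ccl7 had r of 0.987 and 0.968 with Ccl2. For Cxcl1 they were H2ax (r = 0.984), the histone variant phosphorylated at DNA breaks, Knstrn (r = 0.982), a protein of the mitotic spindle and kinetochore, and Pgf (r = 0.977), a ligand of the VEGF receptor Flt1. For Cx3cl1 they were Cyp1a1 (r = 0.969), the classical target of the aryl hydrocarbon receptor, Frat2 (r = 0.906) and Amotl2 (r = 0.893).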

How the data were processed

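RNA from 12 plates was hybridized to 12 arrays. The authors normalized the fluorescence with Robust Multiarray Average and deposited values of unit intensity on a linear scale (7.78 to 20499), with no software version given. The log2 of each value was taken. Of 31099 probe sets, 57 controls served only for RNA quality, and 20826 had 1 gene symbol, 436 several and 9780 none. Models were fitted in R 4.3.3 with limma 3.58.1 to all 12 arrays as 4 groups, with p adjusted over all tested probe sets in each of 5 comparisons. The thresholds are those of the study's methods, whose two-sample t-test was an alternative. The fit was tested on simulated data. Precision is limited by 3 arrays per group.

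All members were named, and of the other lists the genes with the smallest p. These lists used the probe set of highest mean for each gene. Members, lists and rules were chosen with earlier results of these data known. Plate numbers were checked as pairs. Deviations of same-numbered rapamycin and vehicle plates correlated at 0.676, 0.871 and 0.561 in WB-F344. Differently numbered plates 1 and 3 of that line also correlated, at 0.581 and 0.605, so that only the plates numbered 2 were set apart as a pair. In WB311 the same-numbered values were -0.06, -0.00026 and -0.14. The promoter windows come from RefSeq (GRCr8).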

Additional observations from a re-analysis of the deposited data

Results flagged for a closer look

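The rapamycin effect differed between the lines, by limma's test of the difference itself (WB311 minus WB-F344), for 6 member probe sets. The difference in log2 fold change was -2.07 for Ccl7, -1.64 for Cxcl10, -1.59 for Ccl2 and -0.89 for Cxcl16, each lower in WB311. It was 1.2 for Cxcl1 and 0.88 for the Csf1 probe set 1379631_at, both higher in WB311. For Cxcl10 and this Csf1 probe set the effect was called in both lines with opposite signs. The Cxcl10 call in WB311 was lost when any single WB311 array was left out (adjusted p of 0.0506 to 0.0867). In WB-F344, Cxcl10 passed the intensity minimum through the rapamycin group only. Ccl7 was under 100 on all WB311 arrays, where its own effect was not tested, so its difference mostly restates the rise in WB-F344. The other 3 Csf1 probe sets had differences of 0.16, 0.46 and -0.02, none of which was called.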

How the results depend on the processing

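Of 41 calls of member probe sets in the 5 comparisons, 39 were kept with each single array left out and under each other setting that tested them. The 2 exceptions were Cxcl10 for rapamycin in WB311 and Csf1 1380582_at between the lines with vehicle, and this Csf1 call was also lost by the methods' t-test (adjusted p = 0.0930). No member or other listed gene changed direction with a call. The count of members called higher with rapamycin in WB311 was 2, but 4 with only the WB311 groups fitted, 5 by the methods' t-test, 4 with a replicate block within lines and 5 without both WB-F344 plates numbered 2. The members gained were among Cxcl1, Ccl2, Csf1 1380583_s_at and Csf1 1380582_at. The count called lower there was 0 to 1 with single arrays left out. For the difference between the lines, the count called higher was 4 with a replicate block within lines, against 2. The block changed no member call in WB-F344. Over all probe sets, calls for rapamycin in WB311 numbered 440, but 1140 with only its groups fitted, 1234 by the methods' t-test, 289 with no minimum intensity, 1019 with the block within lines, 1188 without both WB-F344 plates numbered 2, and 165 to 723 with single arrays left out. In WB-F344 they numbered 3055, and 1853 with only its groups fitted, 2035 by the t-test, 4033 with the block within lines, 3885 without both plates numbered 2, and 2449 to 3653 with single arrays left out. For the difference they numbered 1424, and 2761 with the block, 2527 without the plates numbered 2 and 968 to 1775 with single arrays left out. The median SD of log2 values was 0.0642 and 0.0782 in WB311 with rapamycin and vehicle, and 0.130 and 0.154 in WB-F344, so the shared spread is wider than that of WB311 alone. The t-test was not run for the difference of effects. Variances with an intensity trend, chosen after seeing the data, added Cxcl1 in WB311 (adjusted p = 0.0468).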
